A study of Mus musculus with 24 samples.

Results

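The miR-181 family was followed here through its 4 guide strands, miR-181a-5p, miR-181b-5p, miR-181c-5p and miR-181d-5p, and through 2 passenger strands, miR-181a-1-3p and miR-181b-1-3p. The members were taken by name from the table of mature miRNAs, which lists them as mmu-miR-181a-5p, mmu-miR-181b-5p, mmu-miR-181c-5p, mmu-miR-181d-5p, mmu-miR-181a-1-3p and mmu-miR-181b-1-3p, and 6 of the 1221 names in the table were used. All 6 passed the filter on low counts, which kept 414 miRNAs for testing.

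MicroRNAs are cut from hairpin precursors by the nucleases Drosha and Dicer, which leave a short duplex. The guide strand of the duplex is retained in an Argonaute protein and pairs with target mRNAs through its seed, the bases at its 5′ end, while the passenger strand is usually released and degraded. In mice the miR-181 family is best known from blood cell development, where miR-181a sets the sensitivity of T cells to antigen, and it has also been studied in muscle, endothelium and brain.

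The study labelled new RNA in 3T9 cells, mouse embryo fibroblasts that grow without limit in culture, kept in DMEM with serum. Cells took up 300 µM 4-thiouridine (4SU, a uridine analogue whose thiol can be coupled to biotin) for 3 h and were then chased with 1 mM uridine. Labelled RNA was captured on streptavidin at 0, 2, 4, 6, 8, 10 and 12 h of chase in 3 experiments, which gave 21 purified libraries. There were 3 control libraries with 1 of each kind and no replicate, namely total RNA of 4SU-pulsed cells, an extraction from unlabelled cells (the negative extraction) and total RNA of unlabelled cells. All groups come from this single line, all labels name the same medium, and no genotype differs among them.

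Depth, the summed miRNA count, was 1133048 to 7886484 in purified libraries, 4525638 in total 4SU RNA, 283922 in the negative extraction and 6412428 in total unlabelled RNA. Levels are given as CPM, counts scaled to a common total of 1e6. A miRNA read spans the whole RNA, so CPM was not divided by length. The libraries are of bulk RNA, in which fewer cells with a miRNA and less of it per cell cannot be told apart. Reads carry no molecular identifiers, so intervals cover counting error only. The header of the table also tags every library with a code of unstated meaning. It differs between experiments 1, 2 and 3, the negative extraction has that of experiment 1, and the total RNA libraries share one found in no purified library, so whatever it stands for and purification cannot be told apart. The 7 fibroblast-type miRNAs listed as markers summed to 110417 to 220377 CPM in purified libraries. Those of other cell types summed to 185 to 734 CPM (blood, 6 miRNAs), 201 to 1151 CPM (epithelium, 6 miRNAs), 0 to 2.65 CPM (endothelium, 2 miRNAs) and 0.883 to 8.54 CPM (neurons, 1 miRNA with an entry). The blood and epithelial sums came mostly from miR-486a-5p and miR-205-5p, with means of 428 and 534 CPM. Among the others listed, miR-142a-3p, miR-223-3p and miR-200a-3p averaged 0.0103, 0.0325 and 0.013 CPM, and miR-150-5p and miR-203-3p averaged 3.74 and 3.24 CPM. The fibroblast sum also came mostly from few miRNAs, miR-143-3p and miR-21a-5p, with means of 94664 and 67628 CPM. Its members miR-145a-5p and miR-152-3p averaged 347 and 496 CPM.

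The mature sequences show what the guides share and how little separates them. They are from RefSeq (GRCm38.p6), written 5′ to 3′ with bases 2 to 8, the seed, in capitals.
miR-181a-5p: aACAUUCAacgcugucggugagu
miR-181b-5p: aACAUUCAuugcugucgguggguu
miR-181c-5p: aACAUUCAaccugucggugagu
miR-181d-5p: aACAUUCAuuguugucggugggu
miR-181a-1-3p: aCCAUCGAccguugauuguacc
miR-181b-1-3p: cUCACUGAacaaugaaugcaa

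The 4 guides carry the seed ACAUUCA, which no other of the 1679 mature mouse sequences in the RefSeq table holds. Counting from 1 at the 5′ end, miR-181b-5p differs from miR-181a-5p by A9U, C10U and A21G over the 23 positions compared, and miR-181d-5p differs from miR-181b-5p by C12U. miR-181c-5p is miR-181a-5p with 1 base removed. The rule by which reads matching several miRNAs were assigned was not stated in the labels or the table, so trimmed reads of such close relatives are uncertain between names. The guides hold 6 (miR-181a-5p), 9 (miR-181b-5p), 6 (miR-181c-5p) and 9 (miR-181d-5p) uridines, the base that 4SU replaces, while miR-181a-1-3p holds 6 and miR-181b-1-3p holds 4. The median over the 346 tested miRNAs with a sequence was 6.

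miR-181a-5p and miR-181b-5p are each made from 2 genes, and their mature reads cannot be assigned to either. Mir181a-1 (chr1:137966455-137966541, plus strand) and Mir181b-1 (chr1:137966639-137966718, plus strand) lie in an exon of the long noncoding RNA A430106G13Rik on GRCm38. Mir181a-2 (chr2:38852735-38852810) and Mir181b-2 (chr2:38853830-38853918) lie on the plus strand within an intron of Nr6a1, a nuclear receptor gene transcribed from the other strand. Mir181d (chr8:84178716-84178787) and Mir181c (chr8:84178873-84178961) lie on the minus strand in an intron of Nanos3, in its direction of transcription. Each passenger name belongs to a single gene, Mir181a-1 or Mir181b-1, since the chromosome 2 copies differ in sequence (U5C and U16C from miR-181a-1-3p to miR-181a-2-3p, and A9U from miR-181b-1-3p to miR-181b-2-3p). miR-181c-3p shares the seed of miR-181a-1-3p. With the assignment rule unstated, passenger reads of such close relatives are uncertain between names too. The hairpins of Mir181a-1 and Mir181b-1 are shown because they tie each passenger to its guide, with the guide as the first and the passenger as the second stretch of capitals.
Mir181a-1: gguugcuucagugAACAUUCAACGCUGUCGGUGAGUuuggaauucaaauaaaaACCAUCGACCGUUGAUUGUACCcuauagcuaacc
Mir181b-1: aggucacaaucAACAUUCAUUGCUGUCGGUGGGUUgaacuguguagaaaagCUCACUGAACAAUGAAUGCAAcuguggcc

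Over the chase, the slopes of the guides and the passengers had opposite signs. In the fit that takes the experiment as a block, all 4 guides rose and both passengers fell relative to TMM scaling, where 15.2% of tested miRNAs rose and 16.7% fell, whereas no member passed the test in the fit without that term. With library totals in place of TMM, miR-181b-5p was the only guide whose blocked call was kept, and the CPM of miR-181d-5p averaged 458 at 12 h and 459 at 0 h. For miR-181a-1-3p most of the loss was seen within the first 2 h, and for miR-181b-1-3p this held in experiments 1 and 2. The ratio of each passenger to its guide fell in all 3 experiments, and 23.8% of the arm pairs tested were called downward. No change in the guides' proportions to each other was detected.

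miR-181a-5p, the family's main guide, was the 14th most abundant of the 1221 names in purified RNA, at 13578, 19027 and 25458 CPM (lowest, median and highest of 21 libraries). In experiment 1 it had 13578 CPM at 0 h, 14083 at 2 h, 14564 at 4 h, 14064 at 6 h, 14885 at 8 h, 13784 at 10 h and 17245 CPM at 12 h. In experiment 2 it had 17949, 19564, 25458, 19442, 23838, 22058 and 19275 CPM at the same times. In experiment 3 the values were 19059, 19841, 18241, 19027, 18080, 22011 and 20017 CPM. Experiment 1 lay below the other 2 at every time, and 12 h was above 0 h within each experiment, although the groups of 3 overlapped.

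miR-181b-5p, whose genes neighbour those of miR-181a-5p, ranked 26th. At 0, 2, 4, 6, 8, 10 and 12 h it had 6139, 5580, 6508, 6578, 6149, 6925 and 7108 CPM in experiment 1. In experiment 2 it had 8577, 10121, 13002, 10631, 11207, 11585 and 10597 CPM at those times, and in experiment 3 it had 8439, 7827, 8229, 8864, 9044, 9591 and 8932 CPM. Experiment 1 was again lowest at every time, 12 h was above 0 h within each experiment, and the 12 h and 0 h groups overlapped.

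miR-181d-5p and miR-181c-5p, from the Nanos3 locus, were far less abundant and ranked 81st and 142nd. miR-181d-5p averaged 459 ± 52.7 CPM at 0 h, 439 ± 57.2 CPM at 6 h and 458 ± 95.3 CPM at 12 h (SD, n = 3 each). In experiments 1, 2 and 3 it had 551, 463 and 361 CPM at 12 h, against 441, 518 and 418 CPM at 0 h. Thus CPM was higher at 12 h in experiment 1 and lower at 12 h in experiments 2 and 3. miR-181c-5p had 118, 111 and 118 CPM at 12 h, against 102, 108 and 102 CPM at 0 h. Its 12 h libraries all lay above its 0 h libraries, a pattern found in 4.35% of the 414 tested miRNAs. The 95% Poisson intervals at 12 h and 0 h overlapped in each experiment, although overlap alone does not place the gap within counting error. They were 106 to 130 and 94.5 to 109 CPM in experiment 1, and 92.6 to 132 and 96.6 to 120 CPM in experiment 2. In experiment 3 they were 105 to 132 and 93.3 to 112 CPM. The library of experiment 2 at 8 h, with 195 CPM from 453 counts, stood apart from the other 20, which held 74.6 to 118 CPM.

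miR-181a-1-3p, the passenger of Mir181a-1, ranked 148th. In experiment 1 miR-181a-1-3p had 165 CPM at 0 h, 60.1 at 2 h, 54.0 at 4 h, 52.4 at 6 h, 45.6 at 8 h, 52.5 at 10 h and 58.2 CPM at 12 h. In experiment 2 miR-181a-1-3p had 152, 80.0, 101, 58.3, 105, 76.1 and 61.8 CPM at those times. In experiment 3 miR-181a-1-3p had 96.0, 61.8, 67.5, 62.3, 41.9, 47.6 and 46.2 CPM. The 0 h library was the highest of its experiment in experiments 1, 2 and 3. From 2 h onward experiment 1 showed no further steady decline, and experiment 2 had high values at 4 h and 8 h.

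miR-181b-1-3p, the passenger of Mir181b-1, was the rarest member, with 1 to 135 counts per purified library and rank 291. All entries used under this name are end-extended forms, mostly 3′ ends with several added bases. Its levels, rank, slope and ratio to the guide are those of these forms and not of the whole strand. No canonical or trimmed form was among the entries used under this name, and whether such reads were counted under another name is not known. It had 3.96, 2.65 and 5.92 CPM at 12 h in experiments 1, 2 and 3, against 17.5, 12.6 and 11.3 CPM at 0 h. At 2 h the values were 5.83, 3.28 and 11.0 CPM. The early drop was thus seen in experiments 1 and 2, while experiment 3 was still at 11.3 CPM at 8 h. Both passengers had every 12 h library below every 0 h library, as did 15.7% of tested miRNAs.

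**Figure D1:**
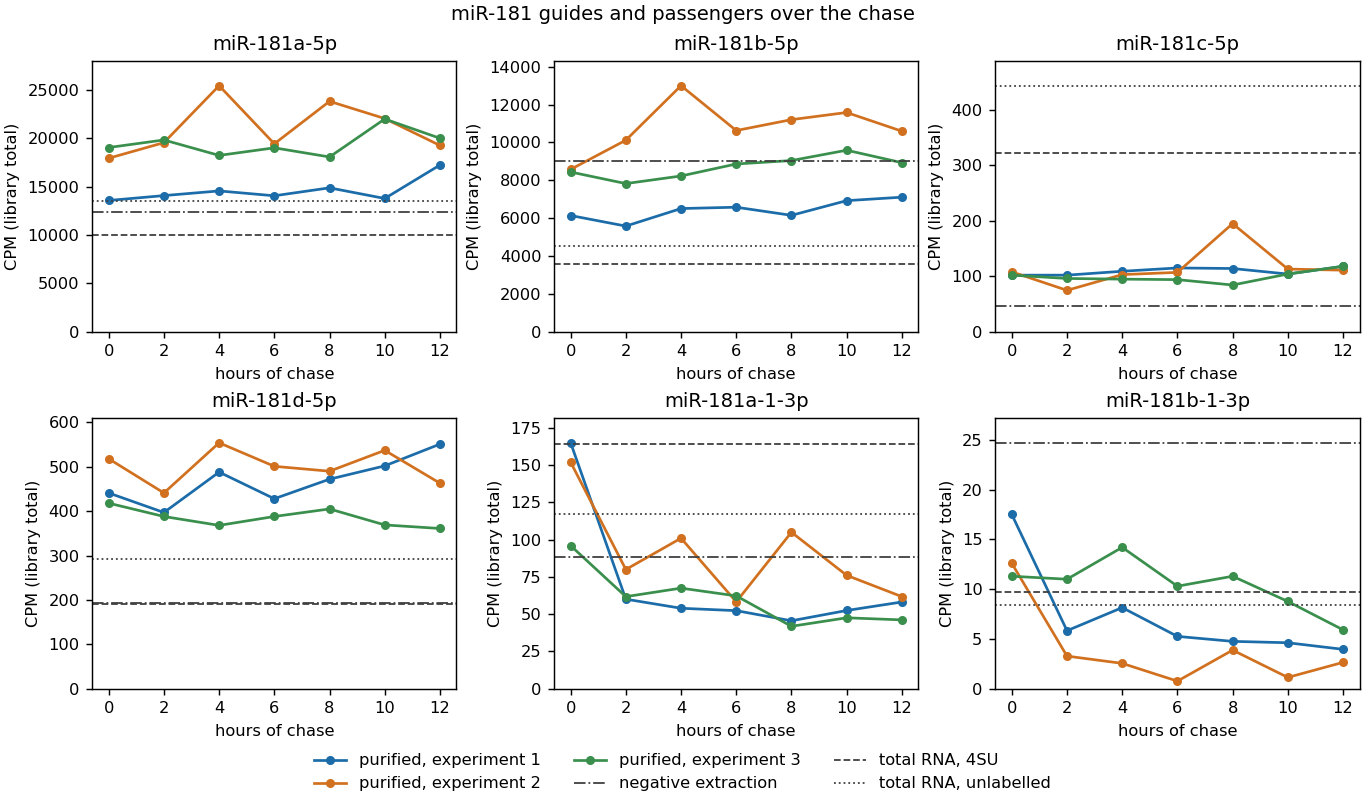
CPM (y axis, from 0, a scale of its own in each panel) of the 6 members against hours of chase (x axis), with a line for each experiment and horizontal lines for the 3 control libraries. Both passengers are lower at 12 h than at 0 h in each experiment, and miR-181c-5p lies far below its total RNA levels of 323 and 444 CPM throughout.

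By level, the order was miR-181a-5p, miR-181b-5p, miR-181d-5p, miR-181c-5p, miR-181a-1-3p and miR-181b-1-3p, with means of 18384, 8649, 451, 108, 73.6 and 7.13 CPM. The ranges over the 21 libraries did not overlap between neighbours, except for miR-181c-5p (74.6 to 195 CPM) and miR-181a-1-3p (41.9 to 165 CPM). miR-181a-5p made up 63.3 to 70.5% of the family's guide reads in purified RNA and miR-181b-5p 27.7 to 34.8%. The remaining passengers of the family were low as well, with means of 26.7 CPM for miR-181c-3p, 2.42 CPM for miR-181b-2-3p, 0.369 CPM for miR-181a-2-3p and 0.129 CPM for miR-181d-3p.

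The slope over the 21 purified libraries asked whether the level of a miRNA changed with time of chase relative to the other miRNAs. It was estimated by edgeR's quasi-likelihood test with TMM scaling, in log2 per hour, with Benjamini-Hochberg adjustment over 414 miRNAs and a threshold of 0.05. The values are relative to the other miRNAs of a library, so a slope is no decay rate. Libraries of the same experiment deviate together, and the values with the experiment as a block stand beside each slope.

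Among guides, the slope of miR-181a-5p was 0.031 (SE 0.0177, adjusted p = 0.284) without the block and 0.032 (SE 0.00806, adjusted p = 0.00274) with it. For miR-181b-5p these were 0.038 (SE 0.0214, adjusted p = 0.283) and 0.038 (SE 0.00771, adjusted p = 0.000312). The slope of miR-181c-5p was 0.043 (SE 0.016, adjusted p = 0.0759) without the block and 0.042 (SE 0.0129, adjusted p = 0.0126) with it. That of miR-181d-5p was 0.025 (SE 0.0134, adjusted p = 0.267) and 0.025 (SE 0.00809, adjusted p = 0.018). Over the 12 h the slopes without the block amount to 1.30-fold, 1.37-fold, 1.43-fold and 1.23-fold for guides a, b, c and d. The block left the slopes in place and narrowed their errors.

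For the passengers the slopes pointed down. For miR-181a-1-3p the slope was -0.068 (SE 0.024, adjusted p = 0.0602) without the block and -0.071 (SE 0.0177, adjusted p = 0.00272) with it. miR-181b-1-3p had -0.096 (SE 0.0418, adjusted p = 0.141) and -0.115 (SE 0.0299, adjusted p = 0.00379).

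In total, 0 of 6 members passed the test without the block, where 5.07% of tested miRNAs passed upward and 7.25% downward. With the block 4 members rose and 2 fell, against 15.2% of tested miRNAs upward and 16.7% downward. The median slope was 0.035 for the 4 guides and -0.082 for the 2 passengers, beside -0.004 for all 414 miRNAs. The 5 miR-30 guides had a median slope of 0.007 and the 2 miR-26 guides one of -0.011. The miR-30 guides ranged from -0.007 to 0.076, with 4 positive and 2 called upward with the block, so a rise was not particular to miR-181. The miR-26 guides lay at -0.021 and -0.002, with 0 called.

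**Figure D2:**
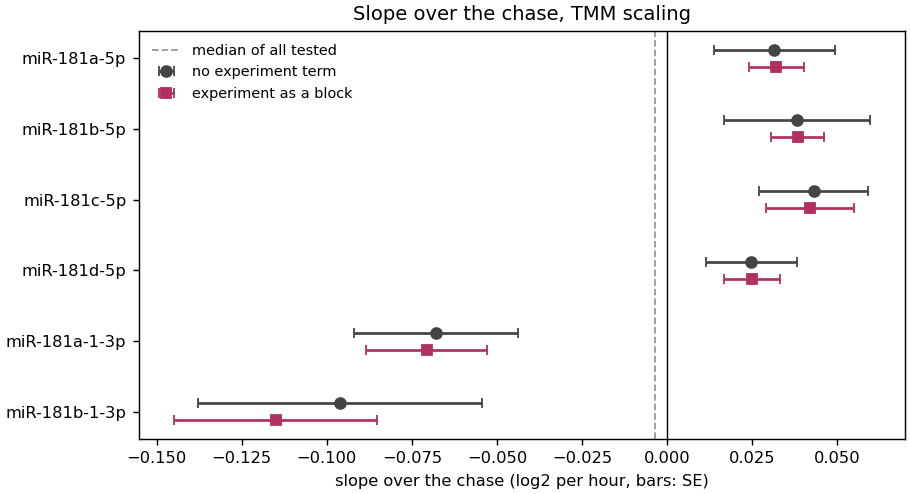
Slope over the chase (x axis, log2 per hour, bars: SE) of the 6 members (rows), without an experiment term (circles) and with the experiment as a block (squares). The 4 guides lie between 0.025 and 0.043 and the 2 passengers between -0.115 and -0.068, on both sides of the median of all tested miRNAs (dashed line).

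Without the 0 h libraries the blocked calls of both passengers and of miR-181a-5p were lost, in a fit with fewer libraries. The blocked slope was then -0.016 for miR-181a-1-3p (adjusted p = 0.531) and -0.057 for miR-181b-1-3p (adjusted p = 0.218). The guide slopes rest on the scaling. With library totals in place of TMM, the median of all slopes shifted by -0.019 per hour, which is -0.23 over 12 h, and the blocked slopes became 0.013 for miR-181a-5p (adjusted p = 0.215), 0.019 for miR-181b-5p (adjusted p = 0.0465), 0.022 for miR-181c-5p (adjusted p = 0.193) and 0.005 for miR-181d-5p (adjusted p = 0.658). Directions were kept in both cases. Leaving out experiment 1 left the blocked call of 2 members, miR-181b-5p and miR-181a-1-3p, and leaving out experiment 3 left those of miR-181b-5p and both passengers.

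The contrast of 12 h with 0 h gave the same picture on the log2 scale. Without the block no member was called, where 1.21% of tested miRNAs were. With the block 2 members were called upward, against 9.66% of tested miRNAs, and 2 downward, against 12.1%. The 2 passengers fell, miR-181a-1-3p with a log2 difference of -1.06 (SE 0.22, adjusted p = 0.00099) and miR-181b-1-3p with -1.68 (SE 0.452, adjusted p = 0.00934). The guides miR-181a-5p and miR-181b-5p rose, with log2 differences of 0.42 (SE 0.127, adjusted p = 0.0179) and 0.44 (SE 0.119, adjusted p = 0.00934). miR-181c-5p had 0.41 (SE 0.193, adjusted p = 0.141) and miR-181d-5p 0.24 (SE 0.126, adjusted p = 0.184). Without the block the log2 differences were 0.40, 0.45, 0.40 and 0.24 for guides a to d and -1.07 and -1.43 for the passengers a-1 and b-1, with adjusted p-values of 0.151 to 0.78. With library totals in place of TMM the median of all miRNAs shifted by -0.241, only the passengers were called with the block, and the sign for miR-181d-5p turned (-0.0068).

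In the fits over all experiments, most of the passengers' difference was present by 6 h. For miR-181b-1-3p this did not hold in experiment 3, with 11.3 CPM at 0 h, 10.3 at 6 h and 5.92 at 12 h. Its 6 h value in experiment 2, 0.767 CPM, rests on 1 count. Against 0 h, the 6 h libraries gave blocked log2 differences of -1.14 for miR-181a-1-3p (SE 0.216, adjusted p = 0.000697) and -1.42 for miR-181b-1-3p (SE 0.407, adjusted p = 0.0253). These 2 were the members called, where 7.25% of tested miRNAs were called downward. Without the block the values were -1.16 for each (adjusted p = 0.244 and 0.978), and 0.242% of tested miRNAs were called. Between 12 h and 6 h no member was called with or without the block, where 2.17% and 0% of tested miRNAs were.

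The ratio of passenger to guide is taken within a library, which removes the scaling except for the 1 CPM added to each arm. It was taken as log2 of CPM + 1 and tested by permuting times within experiments (100000 resamples, two-sided), adjusted over the 105 arm pairs with both arms tested. miR-181a-1-3p over miR-181a-5p stood at -8.39 ± 0.294 at 12 h and -6.95 ± 0.637 at 0 h (SD, n = 3 each). Its slope was -0.093 per hour (SE 0.0204, permutation p = 9e-05, adjusted p = 0.00105), and -0.109, -0.080 and -0.090 in experiments 1, 2 and 3. The ratio of miR-181b-1-3p over miR-181b-5p stood at -10.77 ± 0.637 at 12 h and -9.04 ± 0.573 at 0 h. Its slope was -0.123 (SE 0.0321, permutation p = 0.00049, adjusted p = 0.00367), and -0.144, -0.149 and -0.077 in the 3 experiments. Both ratios therefore fell, each in 3 of 3 experiments. The guide reads of both pairs include those of the chromosome 2 genes, and the passenger reads of the miR-181b-1 pair are of end-extended forms alone. In experiment 2 miR-181b-1-3p went down to 0.767 CPM, so the added 1 CPM weighs on the ratio of this pair.

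A downward ratio was common among hairpins. Of the 105 pairs, 78 had a negative slope, the median was -0.024, and 23.8% were called downward. Ordered from the steepest fall, the miR-181b-1 pair was 6th and the miR-181a-1 pair 14th. The other passengers of the family had slopes of -0.056 for miR-181c-3p over miR-181c-5p (SE 0.0164, adjusted p = 0.0143) and -0.019 for miR-181b-2-3p over miR-181b-5p (SE 0.0305, adjusted p = 0.696). Without the 0 h libraries the slopes were -0.041 for the miR-181a-1 pair (adjusted p = 0.0513) and -0.074 for the miR-181b-1 pair (adjusted p = 0.0776). The call of the miR-181b-1 pair was also lost without experiment 1 and with times permuted freely over experiments (adjusted p = 0.168).

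**Figure D3:**
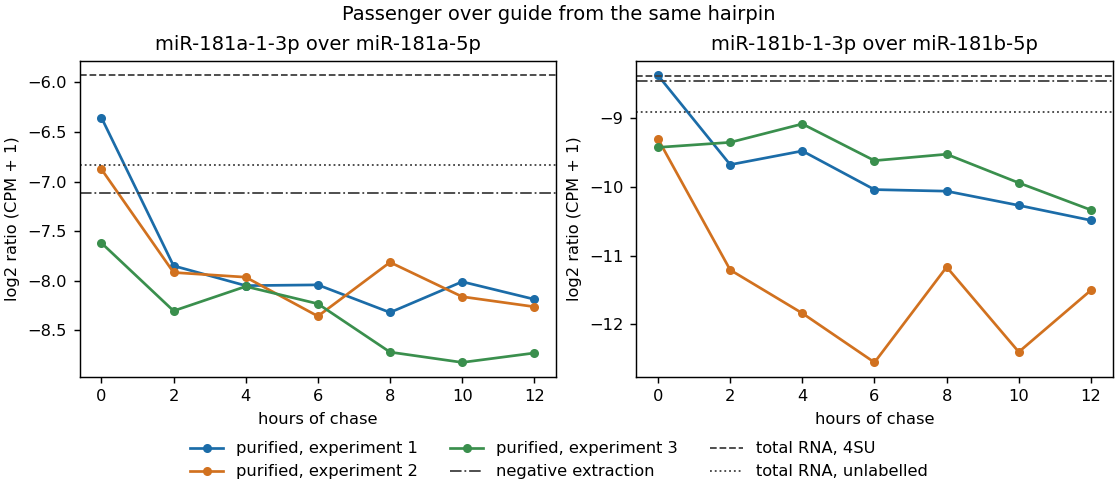
Log2 of passenger over guide (y axis, CPM + 1) against hours of chase (x axis) for the miR-181a-1 pair (left) and the miR-181b-1 pair (right), with a line for each experiment and horizontal lines for the controls. The miR-181a-1 ratio averages -8.39 at 12 h and -6.95 at 0 h, and its steepest step is from 0 h to 2 h in each experiment, while the miR-181b-1 ratio of experiment 2 lies below the others from 2 h onward.

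Among the guides no change of proportion was detected. Over miR-181a-5p, the slope of the log2 ratio was 0.007 for miR-181b-5p (SE 0.00562), 0.010 for miR-181c-5p (SE 0.0126) and -0.007 for miR-181d-5p (SE 0.00786). None of the 3 passed the permutation test (p = 0.23, 0.484 and 0.376, adjusted p = 0.484 each). The guides' levels were positively correlated over the 21 libraries once each experiment was centred, to differing degrees. Pearson's r of log2 CPM with miR-181a-5p was 0.865 for miR-181b-5p, first of 413 miRNAs, 0.681 for miR-181d-5p (18th) and 0.617 for miR-181c-5p (25th). The lowest values between guides were 0.40 for miR-181c-5p with miR-181d-5p and 0.47 for miR-181b-5p with miR-181c-5p. With miR-181a-5p, r was -0.318 for miR-181a-1-3p and -0.495 for miR-181b-1-3p, which had an r of 0.71 with each other. The 5 miRNAs outside the family most like miR-181a-5p were miR-486a-5p (0.833), miR-486b-3p (0.809), miR-7068-3p (0.798), miR-3061-3p (0.771) and miR-151-3p (0.763). These correlations describe 21 libraries that share chase times and differ in depth.

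The deposited table also divides each miRNA by its ends. Canonical reads match the annotated mature form, trimmed reads are shorter, templated extensions continue into the hairpin, and non-templated additions carry bases that the genome does not. These readings follow the class names, whose definitions the labels and the table do not state. Shares are percentages of a miRNA's own reads, and their slopes were tested by permuting times within experiments, adjusted over 838 shares of all miRNAs.

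Of the members' 20 shares tested, 6 were called, beside 30.1% of all 838. The trimmed form gained share in 3 of 4 guides. For miR-181d-5p it made up 45.3, 46.5 and 50.3% at 12 h in experiments 1, 2 and 3, against 42.7, 37.6 and 48.6% at 0 h, with a slope of 0.522 percentage points per hour (SE 0.129, adjusted p = 0.00367). For miR-181a-5p it made up 50.5, 38.2 and 53.1% at 12 h, against 40.7, 37.5 and 51.3% at 0 h, with a slope of 0.373 (SE 0.114, adjusted p = 0.00807). For miR-181b-5p it made up 61.0, 51.4 and 60.8% at 12 h, against 54.4, 50.5 and 60.3% at 0 h, with a slope of 0.359 (SE 0.0997, adjusted p = 0.00807). Each of the 3 experiments was higher at 12 h for each of these guides, by little in experiments 2 and 3 for miR-181a-5p and miR-181b-5p. The trimmed form gained share in 23.2% of the 142 miRNAs for which it was tested.

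The other called shares were those of miR-181a-5p and miR-181b-5p. The canonical form of miR-181a-5p fell, at 46.0, 55.7 and 43.4% at 12 h against 54.9, 57.0 and 45.7% at 0 h, with a slope of -0.383 (SE 0.0935, adjusted p = 0.00154). The 3′ templated extension of miR-181b-5p fell as well, at 9.46, 11.9 and 8.47% at 12 h against 11.4, 13.3 and 11.0% at 0 h, with a slope of -0.286 (SE 0.0567, adjusted p = 0.000955). Its 3′ non-templated addition rose, at 1.68, 2.47 and 1.69% at 12 h against 1.38, 1.61 and 1.36% at 0 h, with a slope of 0.0476 (SE 0.0117, adjusted p = 0.00296). Among all miRNAs tested for these classes, the canonical form fell in 24.2%, the 3′ templated extension fell in 19.6% and the 3′ non-templated addition rose in 24.6%. Without experiment 1 the calls for miR-181a-5p (canonical and trimmed) and for trimmed miR-181b-5p were lost, and without experiment 2 that for trimmed miR-181d-5p was lost. Permuting times freely over experiments also removed the first 3 of these calls.

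miR-181c-5p had no called share. Its 3′ templated extension took 26.4, 66.7 and 25.4% at 12 h, against 37.2, 41.4 and 22.9% at 0 h, and the value of 66.7% in experiment 2 rests on 126 reads of this miRNA. The passenger miR-181a-1-3p differed from the guides in its ends. Its canonical form took 80.3 to 91.4% of reads over the 21 libraries, and its 3′ additions were nearly all of uridine. The share with added uridine was 7.85, 5.71 and 10.3% at 12 h and 6.41, 8.95 and 6.77% at 0 h. None of its 4 shares tested was called, so its loss of level was not accompanied by a detected change in its ends.

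**Figure D4:**
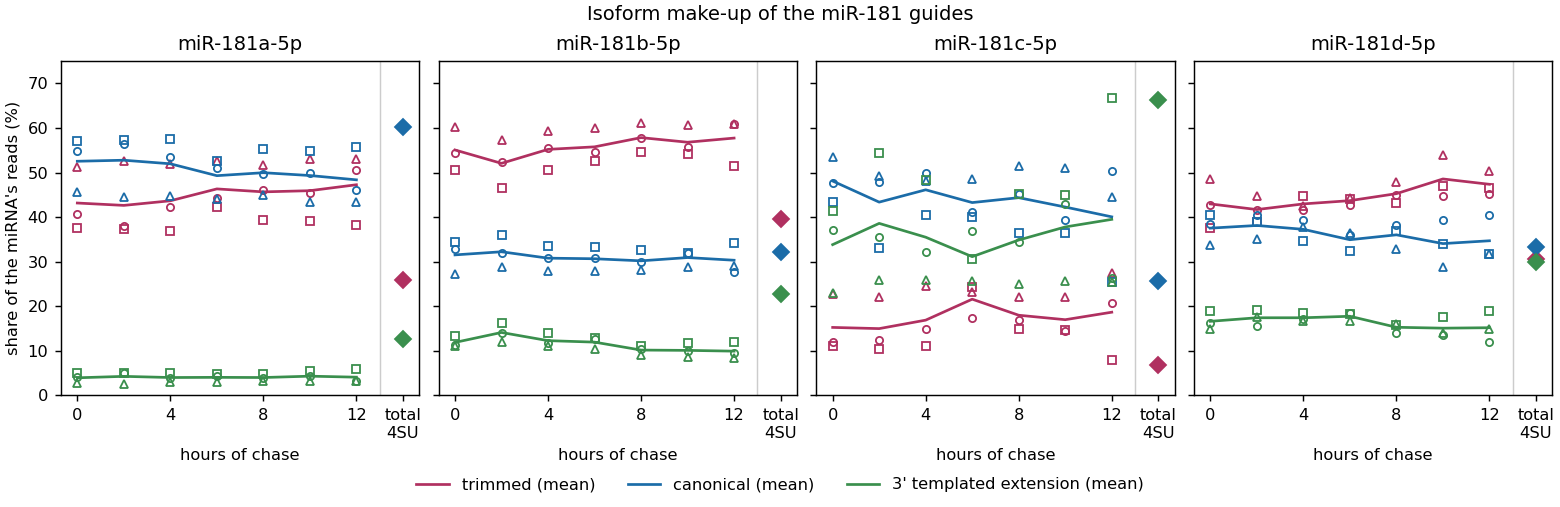
Shares of trimmed, canonical and 3′ templated reads (y axis, percent of each guide's reads) against hours of chase (x axis), with the mean as a line, experiments 1, 2 and 3 as circles, squares and triangles, and total 4SU RNA as diamonds at the right. In each 0 h library of all 4 guides, trimmed reads take a larger share than in total 4SU RNA, and 3′ templated reads a smaller one.

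Purified RNA at 0 h was set beside total 4SU RNA to see how the members stood in captured RNA. Captured RNA can include unlabelled background, which is given with the negative extraction below. With 1 total library no test was run. The mean of the 3 libraries at 0 h over total 4SU RNA gave log2 ratios of 1.26 for miR-181d-5p, 1.09 for miR-181b-5p, 0.73 for miR-181a-5p, 0.44 for miR-181b-1-3p, -0.29 for miR-181a-1-3p and -1.63 for miR-181c-5p. The median of the 414 tested miRNAs was -0.02, with quartiles of -0.92 and 0.65. miR-181c-5p and miR-181d-5p, neighbours on chromosome 8, thus stood on opposite sides, 56th and 378th of 414 from the lowest.

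miR-181c-5p had 102, 108 and 102 CPM at 0 h, against 323 CPM in total 4SU RNA (95% Poisson interval 307 to 340). Its log2 ratios in experiments 1, 2 and 3 were -1.66, -1.57 and -1.65. miR-181d-5p had 441, 518 and 418 CPM at 0 h, against 190 CPM in total 4SU RNA (178 to 203). miR-181c-5p was below and miR-181d-5p above its total level in all 3 experiments. A mean at 0 h under 0.5 times total 4SU RNA was found in 22.9% of tested miRNAs (of the members, miR-181c-5p), and one over 2 times as high in 15.2% (miR-181b-5p and miR-181d-5p). In total RNA miR-181c-5p was 2.29% (4SU) and 2.37% (unlabelled) of the family's guide reads, beside 0.365 to 0.501% at 0 h. The header code and purification cannot be told apart here, and the part of read assignment was not tested.

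**Figure D5:**
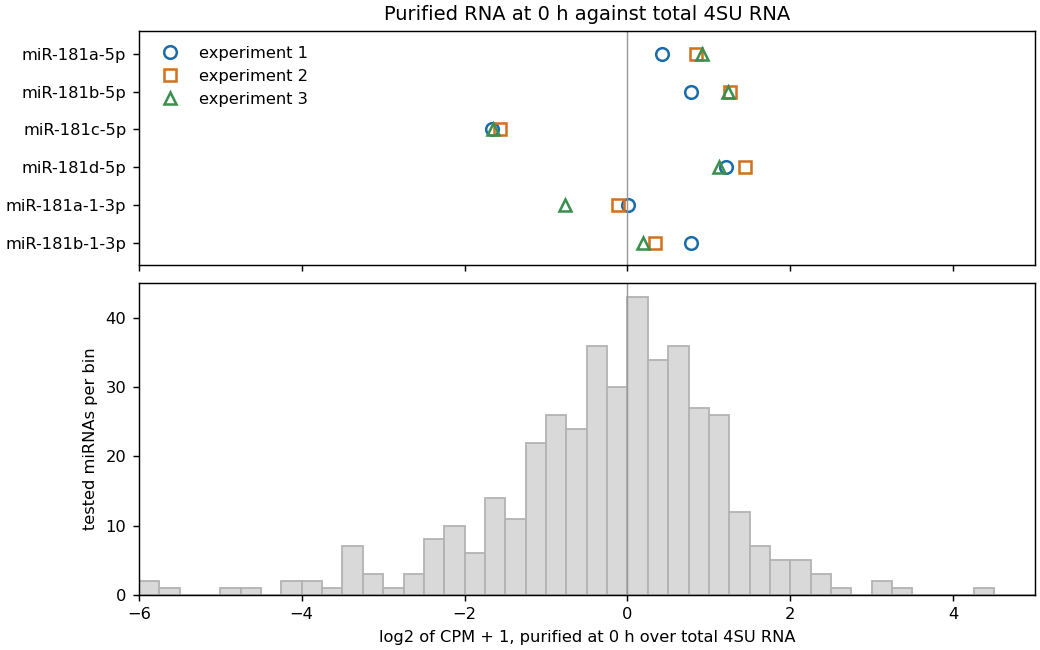
Log2 ratio of CPM + 1 at 0 h over total 4SU RNA (x axis) for the 6 members by experiment (upper panel), above the number of tested miRNAs in each bin (lower panel, y axis) for the mean of the 3 libraries at 0 h. miR-181c-5p lies near -1.6 in all 3 experiments, and miR-181d-5p lies between 1.13 and 1.44.

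The ends differed between the same libraries. The 3′ templated extension of miR-181a-5p took 4.05, 5.10 and 2.75% at 0 h, against 12.7% in total 4SU RNA (exact binomial interval 12.4 to 13.0%). For miR-181b-5p it took 11.4, 13.3 and 11.0%, against 22.7% (22.1 to 23.4%), and for miR-181d-5p 16.2, 18.9 and 14.8%, against 30.0% (26.9 to 33.1%). For miR-181c-5p it took 37.2, 41.4 and 22.9%, against 66.2% (63.7 to 68.6%). All 4 guides had less of this form in each 0 h library than in total RNA, labelled or not, as did 23.5% of the 102 miRNAs tested for it. The trimmed form of all 4 guides took more in each 0 h library than in either total RNA library, as in 26.1% of the 142 miRNAs tested for it. For miR-181a-1-3p, added uridine took 6.41, 8.95 and 6.77% at 0 h, against 4.17% in total 4SU RNA (2.85 to 5.86%), and the intervals of the 0 h values (5.13 to 7.90%, 6.50 to 11.9% and 4.62 to 9.53%) overlapped this one in 2 of 3 experiments.

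In total RNA the guides were lower and miR-181a-1-3p was higher with the pulse than without it, with 1 library on each side. Total 4SU over total unlabelled RNA gave log2 ratios of -0.42 for miR-181a-5p, -0.33 for miR-181b-5p, -0.46 for miR-181c-5p and -0.61 for miR-181d-5p, and 0.49 for miR-181a-1-3p and 0.19 for miR-181b-1-3p. The median of tested miRNAs was 0.31, with quartiles of -0.09 and 0.63. Both passengers lay between these quartiles, and the guides lay below the lower quartile. miR-181a-1-3p had 164 CPM (153 to 177) in total 4SU RNA and 117 CPM (109 to 125) in total unlabelled RNA, whereas the intervals of miR-181b-1-3p, 7.06 to 13.1 and 6.33 to 11.0 CPM, overlapped.

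The negative extraction, the background of the capture, also held the family. Its guides made up 21619 CPM there, against 20259 CPM in the 0 h library of experiment 1, which has the same header code. miR-181b-5p had 9045 CPM in the negative extraction (8698 to 9401) and 4507 CPM in total unlabelled RNA (4455 to 4559). miR-181c-5p had 45.8 CPM (24.4 to 78.3, from 13 counts) in the negative extraction and 444 CPM (428 to 460) in total unlabelled RNA. miR-181c-5p was therefore low beside total RNA in unlabelled captured material as well as in labelled material. miR-181b-5p was high in both. Its log2 ratio was 1.00 for the negative extraction over total unlabelled RNA, and 1.09 for the 0 h mean over total 4SU RNA. The 0 h library of experiment 1 over the negative extraction gave log2 ratios of 0.14, -0.56, 1.13 and 1.18 for guides a to d. It gave 0.90 for miR-181a-1-3p and -0.48 for miR-181b-1-3p, beside a median of 0.45 for tested miRNAs. miR-181a-1-3p had 88.1 CPM (57.0 to 130, from 25 counts) in the negative extraction and 117 CPM in total unlabelled RNA. This was below its 3 libraries at 0 h and above all but 2 of its 18 later ones. miR-181b-1-3p had 24.7 CPM (9.91 to 50.8, from 7 counts) in the negative extraction and 8.42 CPM in total unlabelled RNA, and none of the 21 purified libraries was above 17.5 CPM. CPM is a share of each library and says nothing of the amount of RNA captured, so the part of this background in the 0 h libraries was not tested.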

How the data were processed

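Small RNA libraries (Illumina TruSeq) of 3T9 fibroblasts were analysed from the read counts that the authors deposited, 7129 entries for isoform classes of 1221 mature miRNA names. The deposited counts are whole numbers per library. CASAVA 1.8.0 is named in the submitters' processing notes. Aligner, annotation, class definitions and the rule for reads matching several miRNAs: none is given in the sources used here. Of the entries, 1 duplicate was removed, totals and repeats that equal other entries were used once, and classes were summed per miRNA. Members and lists were chosen with earlier results of these data known.

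Counts were tested with edgeR 4.0.16 (R 4.3.3; TMM, filterByExpr by time point, all 21 purified libraries, threshold 0.05), with DESeq2 1.42.0 as an alternative. The experiment number pairs libraries: deviations from the time means correlated at 0.311 to 0.738 in all 63 same-experiment pairs, against -0.647 to 0.227 in 126 pairs of different experiment and time. Taking deviations from the mean of the experiments at each time itself lowers the second range where experiments differ, so that range is no neutral baseline. The design calls the experiments independent biological replicates. Isoform shares needed 50 counts of the miRNA in every purified library and a mean share of 1%. Share and ratio slopes were tested with 100000 permutations (Python 3.11.15, numpy 2.4.6), and their SEs are of the linear fit with experiments centred. Ratios used a pseudocount of 1 CPM. Intervals are exact 95% Poisson or binomial. A level of 3 counts was 0.38 to 2.65 CPM in purified libraries. All members were named, besides the 5 other miRNAs most correlated with miR-181a-5p. The slope and the contrast of 12 h with 0 h, both without the block, were tried on simulated counts, and the permutation test on simulated shares. The simulated counts held no deviations shared within an experiment. Fits with the block and the other 2 contrasts were not tried on simulated data. Alternatives changed scaling, filter, test, depth, pseudocount, count minimum, times and libraries included.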

Additional observations from a re-analysis of the deposited data

How the results depend on the processing

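Without the replicate block, 0 members passed the slope test. The count was 6 with the replicate block, also with upper-quartile scaling added to it, 3 with the block and library totals, and 3 with the block without 0 h (guides b, c and d). It was 1 without the block under library totals, upper-quartile scaling, DESeq2 and equal depth, 0 to 2 without 1 experiment or 1 library, and with the block 2 to 6 without 1 experiment and 5 to 6 without 1 library, where miR-181d-5p was lost in 5 of 21 cases. All members kept their slope direction in all of these. For 12 h against 0 h the count of 0 became 4 with the replicate block, 1 with library totals and 2 with both, and for 6 h against 0 h it became 2 with the block, with either scaling. It stayed at 0 without 1 experiment, as for 12 h against 6 h. Reversed signs were all of uncalled values: miR-181d-5p at 12 h against 0 h under library totals, -0.0013 without and -0.0068 with the block, and the slope of miR-181c-5p over miR-181a-5p without experiment 2, -0.0007 (0.0166 at most without another experiment). Of the shares, 6 were called, 3 with no replicate block, 4 to 6 without 1 experiment and 6 to 8 without 1 library. Of the arm ratios, 2 were called, 1 with no replicate block, 0 without 0 h and 1 to 2 without 1 experiment. Over all miRNAs the slope called 51, against 132 with the block, 92 with the block and 14 without it when 0 h was left out, and 12 h against 0 h called 5, against 90 with the block. Control ratios were compared 84 times with their values under TMM or a pseudocount of 5 CPM. In 24 of these comparisons the ratio moved by more than the spread of the 0 h libraries or the counting interval. A reversal was recorded only for log2 ratios of at least 1 in absolute size, and 0 were found. Sign changes of smaller ratios were not counted. Fits with the block and upper-quartile scaling or library totals in the contrasts, and those without single libraries for slopes, shares and ratios, were chosen after seeing the data. The causes were not tested. Depth limits miR-181b-1-3p most, at 1 to 135 counts.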
